A study of Arabidopsis thaliana with 8 samples.

Results

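In roots of Arabidopsis thaliana, 4 loci grouped under the response to phosphate (Pi) were examined: AT1G13750, which encodes the purple acid phosphatase PAP1, AT3G02870 (VTC4), AT2G04460 and AT5G20790. They are among 13286 with a named probeset on the array, and each was measured by 1 probeset annotated to that gene alone. They were picked because earlier results on these same arrays were known. For VTC4, AT2G04460 and AT5G20790 those results included their response to Pi withdrawal in the wild type, so that response is described below and not tested. The measure behind the choice of PAP1 is not known, so its genotype test below may not be independent of that choice.

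The series holds 8 Affymetrix ATH1 arrays in 4 groups of 2 biological replicates: per1 roots after 10 h in Pi-free medium, per1 roots in control medium, Col-0 roots after 10 h in Pi-free medium and Col-0 roots in control medium. All plants had first spent 10 days on control agar, and the control groups were moved to fresh control medium. The wild type here is Col-0. The mutant per1 shares its ecotype and is known from the literature as lacking the root hair elongation that Pi deficiency brings about and as carrying a lesion in the ubiquitin protease gene UBP14. UBP14 was not analysed here, and neither the allele nor the number of plants behind a replicate is given in the labels. One label field names iron media, in conflict with the titles, source names and treatment text, which name Pi; the groups follow the titles.

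Plants short of Pi draw on organic phosphorus and rebuild their metabolism around a smaller Pi supply. Purple acid phosphatases are metal-containing enzymes that free Pi from phosphate esters, many of them outside the cell or in the vacuole, and some are classic markers of Pi starvation. PAP1 in this sense is unrelated to the MYB factor of anthocyanin synthesis that shares the abbreviation. VTC4 is L-galactose 1-phosphate phosphatase, an enzyme of ascorbate synthesis that also acts on inositol phosphate and releases Pi in both reactions. AT5G20790 encodes a protein of unassigned function, and AT2G04460 is a pseudogene in the TAIR10.1 annotation. The loci lie on chromosome 1 (PAP1), 3 (VTC4), 2 (AT2G04460) and 5 (AT5G20790).

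The arrays had a common scale, with medians between 186 and 197 signal units. The replicates of a group correlated over all probesets with a Spearman coefficient of 0.975 to 0.982. The bacterial control probesets without spiked transcript reached at most 19.9 to 41.3 signal units per array, which is used here as a mark of background because the files carry no detection calls. The 2 measured of 13 root markers, PYK10 and the peroxidase gene PRX57, gave summed signals of 24273 to 27820 over the 8 arrays. The 2 measured of 14 green shoot markers, RCA and LHCB4.1, gave 283 to 342 in per1 and 468 to 621 in Col-0. The 3 measured of 9 root hair markers (EXPA7, EXPA18 and PRX44) summed to 4277 to 4328 in Pi-free per1 and to 5868 to 7060 in the other groups. PRX44 made up the largest part of these sums. EXPA18 read 765.2 to 1030.6 on the per1 arrays, below the 1159.6 to 1369.8 of the Col-0 arrays, as for 4.79% of all probesets. EXPA7 and PRX44 overlapped between the genotypes in control medium. No marker was at 0.

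**Figure D1:**
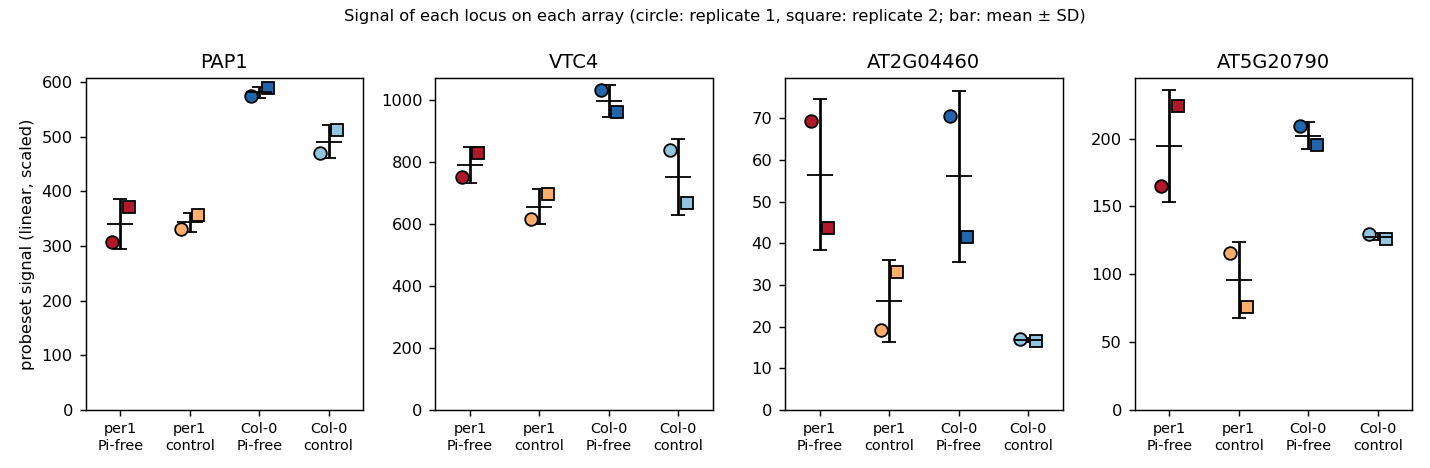
Linear probeset signal of the 4 loci on each of the 8 arrays, with the groups along the horizontal axis, circles for replicate 1, squares for replicate 2, and the bar giving the mean and SD (n = 2). All 4 per1 arrays lie below all 4 Col-0 arrays for PAP1, and the Pi-free arrays of each genotype lie above its control arrays for VTC4, AT2G04460 and AT5G20790.

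PAP1 transcript was lower in per1 than in Col-0 when both media were averaged, and its signals were apart in each medium. In Pi-free medium the PAP1 signal was 308.2 and 372.2 on the per1 arrays, against 574.6 and 589.1 on the Col-0 arrays. In control medium it was 331.2 and 356.1 in per1, against 469.6 and 512.2 in Col-0. Every per1 array was below every Col-0 array, as for 4.79% of all probesets. The highest per1 signal, 372.2, and the lowest Col-0 signal, 469.6, thus stood apart by more than the 2 arrays of any one group did. The mean signal in per1 was 0.585 of that in Col-0 in Pi-free medium and 0.70 in control medium. Within a single medium the difference did not pass in limma, with an adjusted p of 0.124 in Pi-free medium and 0.289 in control medium.

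Averaged over both media, the PAP1 difference of per1 from Col-0 was -0.62 ± 0.10 on the log2(signal + 16) scale (SE; 95% interval -0.84 to -0.40). Limma, fitted over all 22746 probesets with Benjamini-Hochberg adjustment, gave an adjusted p of 0.0286, so PAP1 was called lower at the threshold of 0.05. Of all probesets, 0.497% were called lower in this comparison and 0.818% were called in either direction, and of the 4 loci, PAP1 alone was called. Since every per1 array was below every Col-0 array, each same-numbered pair had to differ in that direction. The pairs differed by -0.87 and -0.64 in Pi-free medium and by -0.48 and -0.51 in control medium. Without the intensity trend in limma's variances the adjusted p was 0.119. Leaving out 1 array kept the call only without the Col-0 Pi-free array of replicate 1 (adjusted p 0.0453), and the adjusted p was 0.0727 to 0.15 without any of the other 7, while the difference stayed between -0.69 and -0.56.

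The green shoot markers, and EXPA18 among the root hair markers, were also lower in per1 in both media, as given above. The 25S rRNA control probeset read 88.4 to 241.8 in per1 and 47 to 143.4 in Col-0. Within each medium and replicate number the 25S reading was higher in per1 than in Col-0. The part of the shoot markers, of the root hair markers and of the 25S signal in the genotype difference of PAP1 was not tested. In whole roots, fewer cells that make a transcript and less transcript per cell cannot be told apart.

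VTC4 pointed the same way with a smaller difference. Its signal in Pi-free medium was 750.7 and 831.3 in per1, against 1033.6 and 961.9 in Col-0, and these groups did not overlap, as for 19.8% of all probesets in that direction. In control medium it was 615.8 and 695.9 in per1, against 839.4 and 666.7 in Col-0, where the groups overlapped. The averaged difference was -0.26 ± 0.10 on the log2 scale (95% interval -0.48 to -0.04), with a limma adjusted p of 0.265, and did not pass. Its unadjusted p was 0.0239, and 14.1% of all probesets had an unadjusted p under 0.05 in this comparison.

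The averaged genotype differences of AT5G20790 and AT2G04460 did not pass. In Pi-free medium the groups overlapped for both. In control medium AT5G20790 read 115.8 and 75.8 in per1, below the 129.6 and 125.8 of Col-0, as for 22.3% of all probesets. AT2G04460 read 19.1 and 33.1 in per1 there, above the 17.1 and 16.4 of Col-0, as for 19.1% of all probesets, with all 4 values at background. AT5G20790 averaged -0.23 ± 0.17 (95% interval -0.61 to 0.16), with a limma adjusted p of 0.616. AT2G04460 averaged 0.18 ± 0.24 (95% interval -0.37 to 0.73), with an adjusted p of 0.805. Differences of up to these bounds remain possible for both loci.

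**Figure D2:**
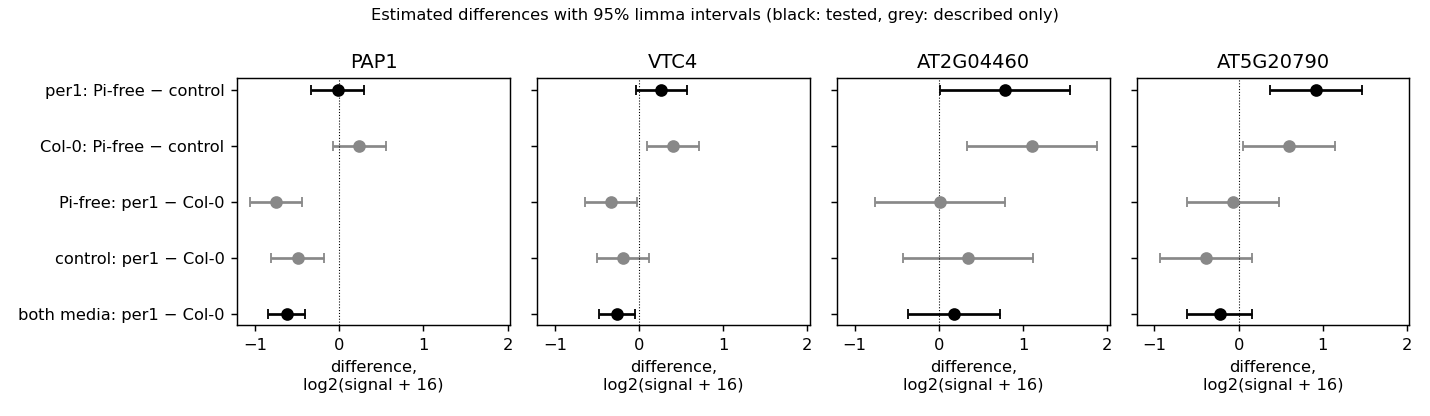
Differences on the log2(signal + 16) scale for the 4 loci, with points for the limma estimate and bars for its 95% interval; black marks the comparisons that were tested and grey those that are described only. Of the tested comparisons, PAP1 averaged over both media, at -0.84 to -0.40, was the only one called in limma. The intervals are not adjusted for the number of probesets. Those of AT5G20790 in per1 (0.37 to 1.47) and AT2G04460 in per1 (0.008 to 1.55) also leave out 0, without a call. The same holds for VTC4 averaged over both media, at -0.48 to -0.04.

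The Pi response in per1 was measured on arrays that the wild type's response did not use. Earlier results on the per1 arrays were available too, and whether they bore on the choice of the loci is not known. The values in per1 may thus not be independent of that choice. In per1, 3 of the 4 loci had both Pi-free arrays above both control arrays, against 19.2% of all probesets, and PAP1 did not. None of the 4 was called in limma, where 0.0044% of all probesets, a single one, were called. AT5G20790 had an unadjusted p under 0.05, as did 4.47% of all probesets, and AT2G04460 did so under some settings only.

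AT5G20790 had the smallest p of the 4. Its signal in per1 was 165.2 and 223.9 in Pi-free medium, against 115.8 and 75.8 in control medium. The Pi-free mean of 195 ± 41.5 was 2.03 times the control mean of 95.8 ± 28.3 (SD, n = 2 each). The difference was 0.92 ± 0.24 on the log2 scale (95% interval 0.37 to 1.47), with an unadjusted p of 0.00392 and a limma adjusted p of 0.936. It was 0.46 within replicate number 1 and 1.39 within number 2, so the size rested mostly on the arrays of replicate 2. By p it was number 93 of 22746 probesets. Its limma adjusted p of 0.936 means that such a rank is near what no response at all would give.

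AT2G04460 read low on all arrays, and its control values were at background. In per1 its signal was 69.3 and 43.7 in Pi-free medium, against 19.1 and 33.1 in control medium. In both genotypes together it was above the largest unspiked control signal on 4 of 4 Pi-free arrays and on 0 of 4 control arrays, so no fold is given. The fitted difference in per1, 0.78 ± 0.35 with a limma adjusted p of 1, is set against background values and depends on the constant. It was 0.42 with a constant of 64 and 1.10 with a constant of 1 in place of 16. Its unadjusted limma p of 0.048 was 0.0556 with the replicate number in the model, 0.0753 with a constant of 1 and 0.0947 after quantile normalization. With other low signals left out it was 0.0841, in a fit that kept AT2G04460 although its own mean lay under the limit. It was 0.0578 in the fit of the 2 groups, 0.0402 with a constant of 64 and 0.0295 without the intensity trend. Replicate 1 was higher than replicate 2 in the Pi-free groups of both genotypes.

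VTC4 in per1 read 750.7 and 831.3 in Pi-free medium, against 615.8 and 695.9 in control medium. The groups did not overlap, and the pairs of the same number differed by 0.28 and 0.25. The difference was 0.27 ± 0.14 (95% interval -0.04 to 0.57), with a limma adjusted p of 1. PAP1 in per1 read 308.2 and 372.2 in Pi-free medium, against 331.2 and 356.1 in control medium, and these groups overlapped. Its difference was -0.02 ± 0.14, with a 95% interval of -0.33 to 0.29 and a limma adjusted p of 1.

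In Col-0 the values of VTC4, AT2G04460 and AT5G20790 were known when these loci were chosen, and for PAP1 this is not known. All 4 had both Pi-free arrays above both control arrays, against 17.7% of all probesets, and 0 were called, against 0.0615% of all probesets; the choice of the loci bears on the first count. PAP1 read 574.6 and 589.1 in Pi-free medium, against 469.6 and 512.2 in control medium, an estimate of 0.24 ± 0.14. AT5G20790 read 209.5 and 195.1, against 129.6 and 125.8, and VTC4 read 1033.6 and 961.9, against 839.4 and 666.7. AT2G04460 read 70.6 and 41.6 in Pi-free medium, against 17.1 and 16.4 in control medium, and its Pi-free mean of 56.1 was close to the 56.5 of per1. With a constant of 64 its Col-0 estimate was 0.56, against 1.11 with 16.

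VTC4, AT2G04460 and AT5G20790 were thus above control in 4 of 4 same-numbered pairs over both genotypes, and PAP1 in 3 of 4. The share of all probesets above control in all 4 pairs was 8.12%. The Col-0 pairs bore on the choice of VTC4, AT2G04460 and AT5G20790, so nothing is read from that share. The response of per1 minus that of Col-0 was -0.26 ± 0.20 for PAP1, -0.14 ± 0.19 for VTC4, -0.33 ± 0.49 for AT2G04460 and 0.32 ± 0.35 for AT5G20790. Their 95% intervals all spanned 0, at -0.70 to 0.18, -0.57 to 0.29, -1.42 to 0.77 and -0.46 to 1.10. These differences contain the Col-0 response and were not tested. Leaving out 1 array moved them to between -0.39 and -0.13 for PAP1, -0.30 and 0.02 for VTC4, -0.62 and -0.03 for AT2G04460, and 0.06 and 0.58 for AT5G20790. The value of VTC4 was above 0 without the control Col-0 array of replicate 2. Actin's 3'/5' signal ratio, which tracks RNA integrity, was 4.07 to 5.49 on the Pi-free arrays and 4.98 to 6.38 on the control arrays. The same ratio for GAPDH was 1.22 to 1.61 on the Pi-free arrays and 1.31 to 1.58 on the control arrays. The part of RNA integrity in the Pi responses was not tested.

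The order of the 4 groups differed between the loci. For PAP1 the mean signal was 340 ± 45.3 in Pi-free per1, 344 ± 17.6 in control per1, 582 ± 10.3 in Pi-free Col-0 and 491 ± 30.1 in control Col-0 (SD, n = 2). The per1 groups were not apart from each other beyond their spread. For AT5G20790 the highest means were those of the Pi-free groups, 195 ± 41.5 in per1 and 202 ± 10.2 in Col-0, which overlapped. Its control means were 95.8 ± 28.3 in per1 and 128 ± 2.69 in Col-0. VTC4 was highest in Pi-free Col-0, at 998 ± 50.7, with 791 ± 57 in Pi-free per1, 656 ± 56.6 in control per1 and 753 ± 122 in control Col-0. The control Col-0 arrays overlapped with Pi-free and with control per1. For AT2G04460 the Pi-free means, 56.5 ± 18.1 in per1 and 56.1 ± 20.5 in Col-0, overlapped, and the control means of 26.1 ± 9.90 in per1 and 16.8 ± 0.495 in Col-0 were at background.

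The loci did not form a single profile over the 8 arrays. Pearson's r between pairs of them, given as a description over 8 arrays that share the 4 groups, was highest for VTC4 with AT5G20790, at 0.72, and for VTC4 with PAP1, at 0.67. It was 0.58 to 0.59 between AT2G04460 and both VTC4 and AT5G20790, and -0.02 between PAP1 and AT2G04460. The loci with the profiles most like each were sought among 5990 probesets with 1 named gene and a mean above the median of all probesets. PAP1 and VTC4 themselves passed that limit, and AT2G04460 and AT5G20790 lay under it.

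For PAP1 the nearest profiles were those of AT4G32190 (r = 0.98), AT3G03100 (r = 0.98) and AT4G33700 (r = 0.97). AT4G33700 read 317.7 and 326.1 in Pi-free per1 and 327.8 and 305.2 in control per1, against 500.7 and 486.6 in Pi-free Col-0 and 405.2 and 445.3 in control Col-0. For VTC4 they were AT1G71950 (r = 0.96), ACLA-2 (r = 0.95), a subunit gene of ATP-citrate lyase, and AT5G58750 (r = 0.94). For AT2G04460 they were AT4G35840 (r = 0.96), AT4G00500 (r = 0.92) and AT1G01990 (r = 0.90). AT4G00500, with a signal far from background, read 438.8 and 417.1 in Pi-free per1, against 334 and 329.6 in control per1, and 451.3 and 406.2 in Pi-free Col-0, against 341.7 and 332.8 in control Col-0. For AT5G20790 they were AT5G24620 (r = 0.97), AT3G10190 (r = 0.96) and the protein kinase gene ATMRK1 (r = 0.94). ATMRK1 read 666.3 and 759.9 in Pi-free per1, against 543.4 and 520.7 in control per1, and 659.7 and 706 in Pi-free Col-0, against 583.7 and 571.5 in control Col-0. These values are descriptions, since a search over many probesets with 8 arrays finds close profiles.

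**Figure D3:**
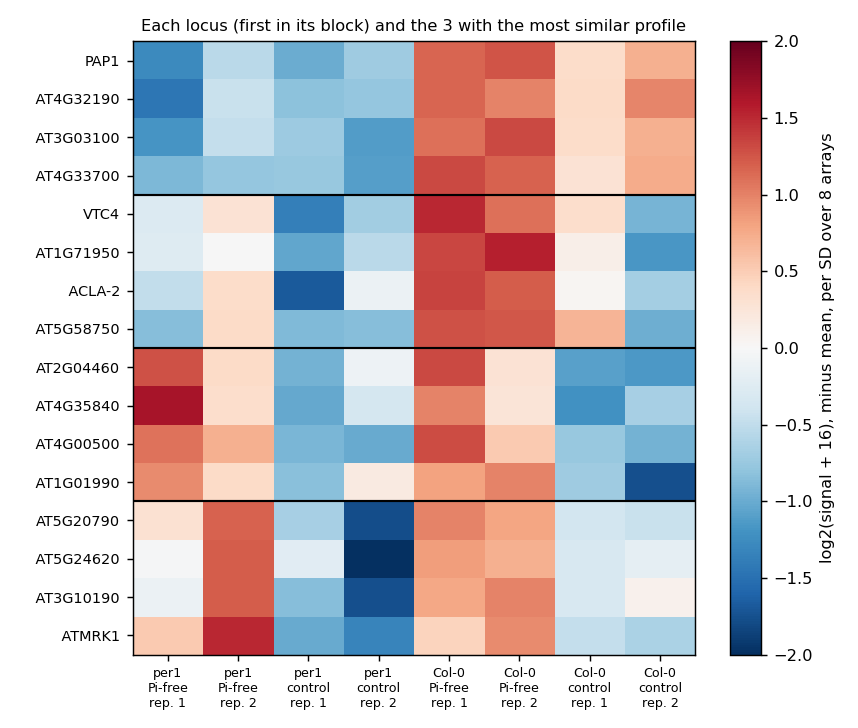
Profiles of the 4 loci, each first in its block, and of the 3 loci most like each, as log2(signal + 16) minus its mean over the 8 arrays and divided by its SD; columns are single arrays. The 4 loci of the PAP1 block are lower on every per1 array than on any Col-0 array, and AT2G04460 and AT5G20790 are higher on every Pi-free array than on any control array.

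The other genes of the same pathways were taken from 7 lists of 130 loci, of which 17 besides the 4 loci had a named probeset. Few members of each list could thus be seen, and measured means throughout that a locus had such a probeset. Many probesets carry no gene name in the annotation used, so a locus that was not measured may still be on the array. In per1, 9 of these 17 had Pi-response estimates above 0 and 8 below, with a median of 0.07 beside 0.02 for all probesets. In Col-0, 8 were above 0 and 9 below, with a median of -0.02 beside 0.00. Limma called 0 of the 17 in the Pi response of per1 and 0 in that of Col-0, with 1 and 2 at an unadjusted p under 0.05, beside 4.47% and 7.68% of all probesets. Averaged over media, 0 of the 17 were called between the genotypes and 1 had an unadjusted p under 0.05, beside 14.1% of all probesets.

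Of the 29 purple acid phosphatases, 3 were measured. The median Pi response of the 3, PAP1 included, was -0.02 in per1 and -0.10 in Col-0. AT1G25230 (PAP4) read 302.3 and 380.7 in Pi-free per1, against 346.7 and 281.5 in control per1, and 320.6 and 453.8 in Pi-free Col-0, against 310.1 and 540.1 in control Col-0. Its groups overlapped throughout, and its averaged genotype difference was -0.27 ± 0.19 with a limma adjusted p of 0.57. PAP20 read 7.5 to 47.9 over the 8 arrays, near background.

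Of the 10 loci for ascorbate synthesis, 5 were measured. Their median Pi response was 0.07 in per1 and 0.04 in Col-0, and VTC4 had the largest estimate in both genotypes. PMM, which makes mannose 1-phosphate, stood at 0.07 ± 0.14 in per1 and 0.19 ± 0.14 in Col-0. GME, the epimerase that forms GDP-L-galactose, stood at -0.17 ± 0.10 in per1 and 0.04 ± 0.10 in Col-0. GLDH, the mitochondrial enzyme of the last step, stood at -0.12 ± 0.12 in per1 and -0.11 ± 0.12 in Col-0. In limma 0 of the 5 were called in either genotype. VTC4 was the single measured locus among 10 for inositol phosphate metabolism.

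Ascorbate use and recycling was covered by 3 of 16 loci, with a median Pi response of -0.03 in per1 and 0.04 in Col-0 and 0 called. TAPX, the thylakoid ascorbate peroxidase gene, read 33.6 and 15.6 in Pi-free per1, against 80.5 and 39.1 in control per1. Both Pi-free values were under the largest unspiked control signal of their arrays, 41.3 and 22.8, and its estimate there, with a limma adjusted p of 1, is therefore not given. The stromal peroxidase gene SAPX stood at -0.03 ± 0.09 in per1 and 0.17 ± 0.09 in Col-0, and MDAR2, a monodehydroascorbate reductase gene, at 0.08 ± 0.10 and 0.04 ± 0.10 in the same order.

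Phosphate transport was covered by 2 of 22 loci. PHO1;H10 (AT1G69480), of the family of the Pi exporter PHO1, read 80.9 and 55 in Pi-free per1, against 53.9 and 51.6 in control per1, and 69.2 and 106 in Pi-free Col-0, against 54.3 and 39.6 in control Col-0. Its Pi-free arrays were above its control arrays in both genotypes, as held for 19.2% of all probesets in per1 and for 17.7% in Col-0. Its estimates were 0.27 ± 0.31 in per1 and 0.71 ± 0.31 in Col-0, with limma adjusted p of 1 and 0.634. VPT1 (AT1G63010), a vacuolar Pi transporter gene, stood at 0.56 ± 0.19 in per1, with a limma adjusted p of 1, and at -0.04 ± 0.19 in Col-0. The per1 value of VPT1 rested on the control array of replicate 2, which read 1072 against 1737 on the other control array.

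Phosphate signalling was covered by 5 of 22 loci, with a median Pi response of 0.10 in per1 and 0.06 in Col-0 and 0 called. The transcription factor gene WRKY6 stood at -0.04 ± 0.15 in per1 and 0.36 ± 0.15 in Col-0, with an adjusted p of 0.614 in Col-0. WRKY42 read 2.6 to 39 over the 8 arrays, near background. LPR1, a ferroxidase gene of the root response to low Pi, read 333.9 and 260.9 in Pi-free per1 and 229.9 and 313.5 in control per1, against 403.8 and 336.9 in Pi-free Col-0 and 398.5 and 413.5 in control Col-0. All of its per1 signals were below all of its Col-0 signals, as for 4.79% of all probesets, the closest being 333.9 and 336.9. Its averaged difference of -0.44 ± 0.14 had a limma adjusted p of 0.182. Its paralog LPR2 stood at 0.10 ± 0.17 in per1 and 0.06 ± 0.17 in Col-0. SIZ1, a SUMO ligase gene, stood at -0.03 ± 0.13 in per1 and -0.10 ± 0.13 in Col-0. In the list of lipid remodelling and Pi recycling, 1 of 22 loci was measured, the methyltransferase gene NMT3 (AT1G73600), at -0.29 ± 0.26 in per1 and -0.33 ± 0.26 in Col-0.

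**Figure D4:**
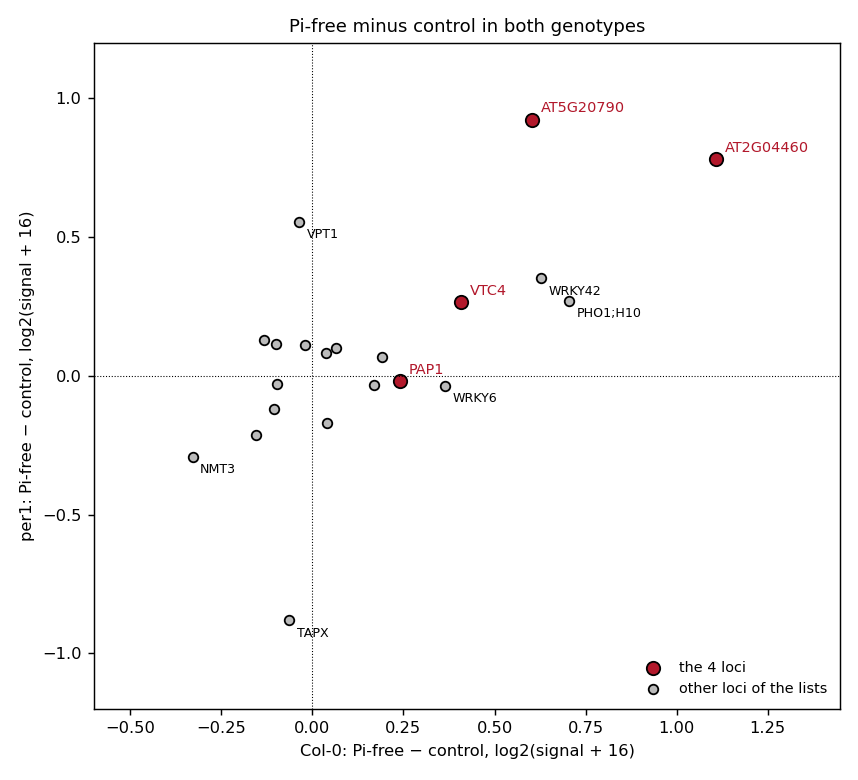
Pi-free minus control difference in per1 (vertical axis) and in Col-0 (horizontal axis), both on the log2(signal + 16) scale, for the 4 loci in red and the 17 other measured loci of the pathway lists in grey. AT5G20790 stands at 0.92 in per1 and AT2G04460, whose control values are at background, at 0.78, while PAP1 lies near 0 there. WRKY42 and the Pi-free per1 values of TAPX are near background too.

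The nearest genes on the chromosomes were taken from the order of loci in TAIR10.1, 5 on each side of each locus. Of these 40 neighbours, 15 had a named probeset. For PAP1, the 2 measured neighbours had averaged genotype differences of -0.23 (AT1G13760) and 0.25 (AT1G13730), with limma adjusted p of 0.694 and 0.269. Over all 15 the averaged genotype differences ran from -0.48 to 0.25, and the lowest adjusted p was 0.269. The Pi responses of the 15 ran from -0.59 to 0.82 in per1 and from -1.22 to 0.69 in Col-0. Within that range, the direct neighbour of VTC4, AT3G02860, stood at 0.70 in per1 and 0.00 in Col-0, against 0.27 and 0.41 for VTC4.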

How the data were processed

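The deposited file holds a linear signal intensity for each probeset and array, from biotin-labelled RNA per the labels. How the authors summarised, background-corrected and scaled the probes is not given in the sources used here. A 2% trimmed mean of 500 was common to the arrays. Of 22810 probesets, 64 controls were left out. Genes came from the platform annotation (13513 probesets with 1 gene, 503 with several) and were matched by gene identifier to the TAIR10.1 table. Signals were transformed as log2(signal + 16) and analysed in R 4.3.3 by limma 3.58.1. The model had a mean for each group and 4 residual degrees of freedom. Variances were shared by the groups and moderated along an intensity trend. Calls used a Benjamini-Hochberg adjusted p under 0.05 over 22746 probesets. The number of arrays limits the precision. Replicates are labelled biological, with no word on their source, so p-values measure the spread between these samples.

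The loci and gene lists were chosen with earlier results of these data known. Named genes were the 4 loci, the list members with the 3 smallest p in either genotype's Pi response, and the 3 loci with the highest Pearson correlation to each locus. Neighbouring loci, VTC4's direct neighbour among them, were added outside that rule. No sequences were used here. Alternatives were other constants, a signal filter, no trend, quantile normalization, the replicate number as a block, fits of 2 groups and fits without 1 array. The signal filter kept the 4 loci at any level.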

Additional observations from a re-analysis of the deposited data

How the results depend on the processing

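The tested comparisons of the 4 loci were the Pi response in per1 and the genotype difference averaged over media. Their signs were kept in all alternatives, except for the Pi response of PAP1 in per1, which was -0.02 with all arrays, 0.11 when replicate 1 of Pi-free per1 was left out and 0.03 when replicate 2 of control per1 was, and -0.15 to 0.11 over the fits without 1 array. For PAP1 between the genotypes the adjusted p was 0.00781 with low signals left out, 0.013 with the replicate block and 0.0179 to 0.034 with other constants or quantile normalization. Of these tested values, none but that of PAP1 between the genotypes was called under any alternative. Among the values that are only described, the genotype difference in Pi-free medium was -0.28 to 0.31 for AT2G04460 and -0.27 to 0.14 for AT5G20790 over the alternatives, and that of PAP1 had an adjusted p of 0.0453 with low signals left out.

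Over all probesets, calls depended on the setting. For the genotype difference averaged over media (186 calls) they were 368 with low signals left out, 357 with the replicate block, 0 without the trend and 12 to 232 without 1 array. For the Pi response in per1 (1 call) they were 2 with a constant of 1, 7 with low signals left out, 4 with the block, 0 without the trend and with 2 groups, and 0 to 2 without 1 array. For that in Col-0 (14 calls) they were 26, 37, 31, 1 and 3 under the same settings, and 3 to 4 without 1 array. For the genotype difference in control medium (13 calls) they were 20 with a constant of 1, 54 with low signals left out, 42 with the block, 0 without the trend and with 2 groups, and 1 to 14 without 1 array. For that in Pi-free medium (7 calls) they were 16 with a constant of 1, 2 with a constant of 64, 63 with low signals left out, 48 with the block, 0 without the trend and with 2 groups, and 0 without 1 array. For the difference in Pi response between the genotypes (2 calls) they were 1 with a constant of 64 or quantile normalization, 0 without the trend and 0 to 2 without 1 array. Where limma made 0 calls, 794 to 3620 probesets had an unadjusted p under 0.05. The cause of these shifts was not tested.

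The replicate numbers are not stated to mark a shared batch, and deviations of same-numbered arrays correlated at 0.00 to 0.08 over 6 pairs of groups. The 25S rRNA control probeset, however, read higher on replicate 2 than on replicate 1 in all 4 groups. It read 241.8 against 88.4 in Pi-free per1 and 203.5 against 99.7 in control per1. In Col-0 it read 143.4 against 51.8 in Pi-free medium and 117.2 against 47 in control medium. The number was left out of the model, and the block changed no call of the 4 loci that was tested. In fits without 1 array the lone array of a group is assumed to vary like the others. No locus had a second probeset with 1 gene, so that alternative was not run. AT2G04460 lies at background in control medium, which limits its values.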
